A study of Mus musculus with 2 samples.

Results

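The genes described here are 9 markers of lung fibroblasts among 32285 measured genes. Inmt, Mfap4, Tcf21, Npnt and Pdgfra mark alveolar fibroblasts, and Dcn, Pi16, Dpt and Serpinf1 mark adventitial fibroblasts. They were chosen by name, as known markers of both cell types. RNA was measured by Visium spatial transcriptomics, in which each spot of a slide captures RNA from a small patch of tissue that can hold several cells. One fresh-frozen section came from the metastatic lung of a female Balb/c mouse of 6 to 8 weeks, whose mammary fat pad received 4T1 cells and whose lung was taken 21 to 23 days later. 4T1 is a mouse mammary tumour line that spreads from the fat pad to the lung. The other section came from a control lung without tumour, whose strain and age the labels do not give separately. With 1 section per condition no test of the condition was possible, and the values below compare these sections and the regions in them.

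Fibroblasts of the lung differ by place. Alveolar fibroblasts lie in the thin walls between air sacs, next to alveolar type I (AT1) and type II cells and capillaries, where they lay down matrix and supply growth factors. Adventitial fibroblasts form a cuff of loose connective tissue around larger vessels and airways, outside the smooth muscle layer, and share many of their genes with the fibroblasts of other organs.

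Inmt (ENSMUSG00000003477, chr6:55170626-55175043) encodes an enzyme that methylates indoleamines. Mfap4 (ENSMUSG00000042436, chr11:61485431-61488900) and Npnt (ENSMUSG00000040998, chr3:132881745-132950291) encode extracellular matrix proteins, the first bound to elastic fibres and the second, nephronectin, a ligand of integrin alpha8. Tcf21 (ENSMUSG00000045680, chr10:22817281-22820174) encodes a basic helix-loop-helix transcription factor of lung mesenchyme. Pdgfra (ENSMUSG00000029231, chr5:75152292-75198215) encodes a receptor for platelet-derived growth factor. Among the adventitial genes, Dcn (ENSMUSG00000019929, chr10:97479609-97518143) encodes decorin, a proteoglycan that binds collagen fibrils. Pi16 (ENSMUSG00000024011, chr17:29317680-29330593) encodes a secreted peptidase inhibitor and marks fibroblasts around vessels in many organs. Dpt (ENSMUSG00000026574, chr1:164796644-164824266) encodes dermatopontin, a matrix protein. Serpinf1 (ENSMUSG00000000753, chr11:75409769-75422701) encodes pigment epithelium-derived factor, a secreted protein that restrains vessel growth. Positions are those of the whole genes in GENCODE M21 on GRCm38. Exons of Mfap4 overlap those of Mapk7 on the other strand, and exons of Pi16 and Pdgfra also overlap other annotated genes. Whether strand was used in counting is not given in the sources used here.

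Tcf21 and related factors bind the E-box, CANNTG, a motif that reads the same on both strands. It was therefore searched in the 250 bases before the RefSeq start of each gene (GRCm38.p6), a window that was present for 7 of the 9 genes. The windows of Tcf21 and Pi16 held 0 E-boxes, that of Pdgfra 1, that of Inmt 2, that of Serpinf1 4 and that of Dpt 6. Npnt has 2 annotated starts, whose windows held 0 and 2. Mfap4 and Dcn were without a window. Of 32851 windows of all genes, 66.2% held at least 1 and 3.84% at least 4. Dpt, whose counts were not gathered in few spots, and Serpinf1, whose counts were, were thus both rich in the motif. A match is a string of letters and not a measured site. The bases of 5 windows that lie before the first annotated exon are shown 5′ to 3′, with E-boxes in capitals.
Inmt, chr6:55175044-55175240, minus strand: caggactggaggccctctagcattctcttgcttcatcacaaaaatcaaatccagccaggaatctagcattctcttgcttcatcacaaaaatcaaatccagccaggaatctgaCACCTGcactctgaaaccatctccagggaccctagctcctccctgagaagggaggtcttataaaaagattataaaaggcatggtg
Tcf21, chr10:22820175-22820393, minus strand: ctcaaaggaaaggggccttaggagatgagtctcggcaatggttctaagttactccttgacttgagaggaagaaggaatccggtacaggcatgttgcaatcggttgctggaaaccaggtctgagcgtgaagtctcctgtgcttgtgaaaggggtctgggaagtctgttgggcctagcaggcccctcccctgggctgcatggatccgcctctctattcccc
Pdgfra, chr5:75152001-75152250, plus strand: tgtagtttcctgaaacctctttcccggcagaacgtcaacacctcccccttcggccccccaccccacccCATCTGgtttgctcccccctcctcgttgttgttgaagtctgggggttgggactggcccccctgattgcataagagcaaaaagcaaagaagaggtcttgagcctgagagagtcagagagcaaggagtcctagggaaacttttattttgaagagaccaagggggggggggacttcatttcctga
Dpt, chr1:164796413-164796643, plus strand: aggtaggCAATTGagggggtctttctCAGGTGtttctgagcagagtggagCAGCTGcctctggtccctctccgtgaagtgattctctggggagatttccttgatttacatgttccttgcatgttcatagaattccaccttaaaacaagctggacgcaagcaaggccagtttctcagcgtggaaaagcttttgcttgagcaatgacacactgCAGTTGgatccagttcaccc
Serpinf1, chr11:75422702-75422873, minus strand: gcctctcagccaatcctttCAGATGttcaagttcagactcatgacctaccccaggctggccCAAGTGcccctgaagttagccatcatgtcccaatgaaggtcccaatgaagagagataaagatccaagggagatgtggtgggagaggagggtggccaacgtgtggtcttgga

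Levels were the summed counts of a gene over the spots of a region per 10000 summed counts of all genes, with exact 95% Poisson intervals. For a ratio of levels the interval came from the binomial distribution of a gene's counts between both regions, without approximation. Both cover counting error only, not the spread between mice or sections. The control section held 1888 spots and the metastatic section 1110, with a median of 9643.5 and 11334.5 counts per spot. In the metastatic section the tumour region was a cluster of 154 spots, found without using the 9 genes, the one with the highest score of tumour over airway genes. Hmga2, an oncofetal gene that the adult lung hardly expresses, had 40 counts there, 4 in far lung and 0 in the control section. Mki67, a gene of dividing cells, was at 1.097 counts per 10000 in the tumour region and 0.0783 in far lung. Of 10 measured genes of the tumour list, 2 were past 1.5-fold higher than in far lung and 8 past 1.5-fold lower, so that most of the list went against the name. Krt8, a keratin of simple epithelia and carcinomas, was at 2.12 against 1.38 in far lung, and Krt18, its partner, had a log2 ratio of 1.01. These 4 genes were picked after values were seen, and the name tumour region is that of the clustering rule. Hmga2, Krt8 and Krt18 are also on the tumour list that chose the cluster, so their levels give no independent support for the name. Mki67 is not on that list. The region held a large group of 123 spots at the edge of the section and a small group of 28 spots. In the small group Hmga2 was at 0.172 counts per 10000, from 3 counts, against 0.00482 in far lung. Mki67 was at 1.66 there, and Krt18 at 1.66 against 0.764, both above far lung, whereas Krt8, at 1.14, was below it. The small group was also rich in lymphoid genes. B cell genes were at 3.72 against 0.534 in far lung, and T and NK cell genes at 6.29 against 1.03. Whether the small group is tumour tissue was not settled by these markers. An inner part of 79 spots, of which 76 lay in the large group, was told from an outer part of 75 by clustering. Outside it, the margin (up to 200 µm from a tumour-region spot) held 106 spots, an intermediate zone 197 and far lung (over 500 µm) 653.

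The alveolar genes were spread over most of both sections, whereas Dcn, Pi16 and Serpinf1 were gathered in few spots. In the control section, the 10% of spots with the highest counts of a gene held 14.2% of Inmt, 18.0% of Mfap4, 24.2% of Tcf21, 18.4% of Npnt and 27.7% of Pdgfra counts. The same share of spots held 62.1% of Dcn counts, 62.1% of Pi16 counts and 61.2% of Serpinf1 counts. The counts behind these shares were 1779 for Pdgfra, 2438 for Dcn, 2256 for Pi16 and 949 for Serpinf1, and the part of sparse sampling in the shares was not tested. Dpt, with 4577 counts, stood with the alveolar genes at 23.6%. In the metastatic section the shares were 73.3% for Dcn, 57.4% for Pi16 and 71.3% for Serpinf1, against 23.2% for Dpt and 18.4% to 32.6% for the alveolar genes. Far lung, its largest region, held 248 Dcn, 271 Pi16 and 152 Serpinf1 counts. The coefficient of variation between spots beyond counting error was 1.74 for Dcn, 1.86 for Pi16 and 1.52 for Serpinf1 in the control section. In the metastatic section it was 2.22, 1.35 and 1.36, against 0.565 for Dpt and 0.699 to 0.849 for the alveolar genes. For Serpinf1 it was thus lower there, although its share was higher. So 3 of the 4 adventitial genes were clustered and Dpt was not.

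**Figure D1:**
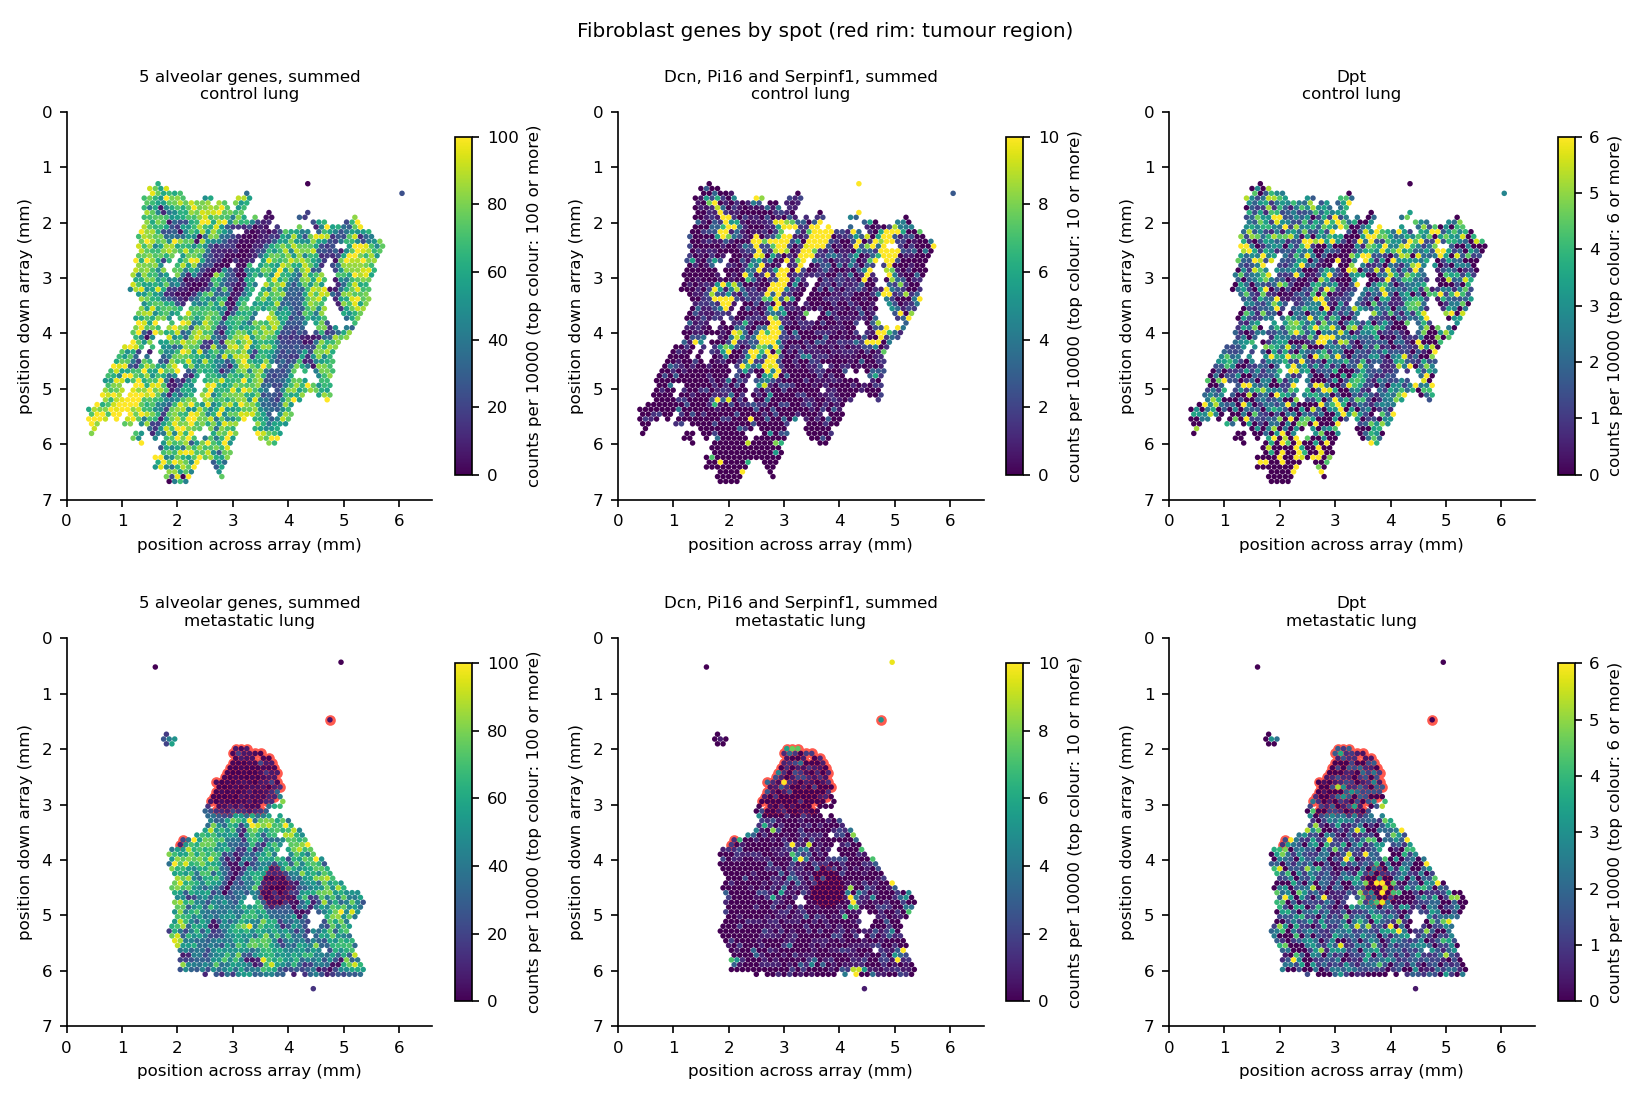
Level per spot (counts per 10000, colour) of the 5 alveolar genes summed, of Dcn, Pi16 and Serpinf1 summed, and of Dpt, in the control section (top) and the metastatic section (bottom), with position on the array in mm. In the control section Dcn, Pi16 and Serpinf1 run in tracts where the alveolar genes are low. Dpt is scattered, and the tumour region (154 spots, red rim) is dark for the alveolar genes.

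Separation within a spot was measured by co-occurrence. It is the sum over spots of the product of the counts of 2 genes over the sum expected from the spot totals. A value of 1 is no relation only where a gene's share of the counts does not vary with depth. Deep spots weigh more in this measure. Spots were shared by Dcn, Pi16 and Serpinf1. In the control section the pair Dcn and Pi16 was at 3.26, Pi16 and Serpinf1 at 3.18 and Dcn and Serpinf1 at 3.001, and in the metastatic section they were at 1.72, 2.17 and 2.70. With equal weight per spot, a measure added after seeing the data, the same pairs were at 6.38, 6.08 and 5.95 in the control and at 4.60, 6.42 and 8.12 in the metastatic section. All were above 1 by both measures, but their order between the sections depended on the weight. Pairs of alveolar genes lay between 0.942 and 0.988 in the control section and between 0.967 and 1.07 in the metastatic section. With equal weight they lay between 1.15 and 1.25 and between 1.26 and 1.37, so their direction depended on the weight. Pearson correlations of their log levels over spots were all positive, from 0.180 to 0.723 in the control and from 0.307 to 0.749 in the metastatic section.

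Across the lists, all 15 pairs of an alveolar gene with Dcn, Pi16 or Serpinf1 were below 1 in both sections. Their median was 0.476 in the control section, with a highest value of 0.599 for Inmt with Dcn, and 0.596 in the metastatic section. There the 5 pairs with Dcn lay between 0.430 and 0.660, and Inmt with Pi16 was the highest at 0.927. With equal weight the control median was 0.622 with all pairs below 1, whereas in the metastatic section it was 0.917. There Pi16 turned to 1.22 with Inmt, 1.103 with Tcf21, 1.05 with Pdgfra and 1.005 with Npnt, and was at 0.998 with Mfap4. All pairs with Dcn or Serpinf1 stayed below 1. Without the tumour region, Pi16 was at 1.08 with Inmt and between 0.895 and 0.975 with the other alveolar genes. Separation of Pi16 from the alveolar genes in the metastatic section thus depended on the weight and on the tumour region. The difference between the sections could not be tested. Dpt with the alveolar genes had a median of 0.849 in the control and 0.871 in the metastatic section, and with the other 3 adventitial genes 1.08 and 0.873. Equal weight gave 1.02 and 1.12, and 1.75 and 1.08. The summed lists were at 0.686 in the control and 0.800 in the metastatic section, and without Dpt at 0.535 and 0.677. With equal weight they were at 0.841 and 1.07, so that the value for the metastatic section crossed 1 while Dpt was in the list.

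Distance weakened these relations. In the control section the median pair of Dcn, Pi16 and Serpinf1 fell from 3.18 in the same spot to 2.44 at 100 µm, the distance between neighbouring spots, and 1.60 at 300 µm. The steps in the metastatic section were 2.17, 1.24 and 1.04. The alveolar genes with these 3 went from 0.476 to 0.582 and 0.866 in the control section and from 0.596 to 0.734 and 0.902 in the metastatic section. With equal weight the metastatic values were 0.917, 0.832 and 0.915, with no rise.

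**Figure D2:**
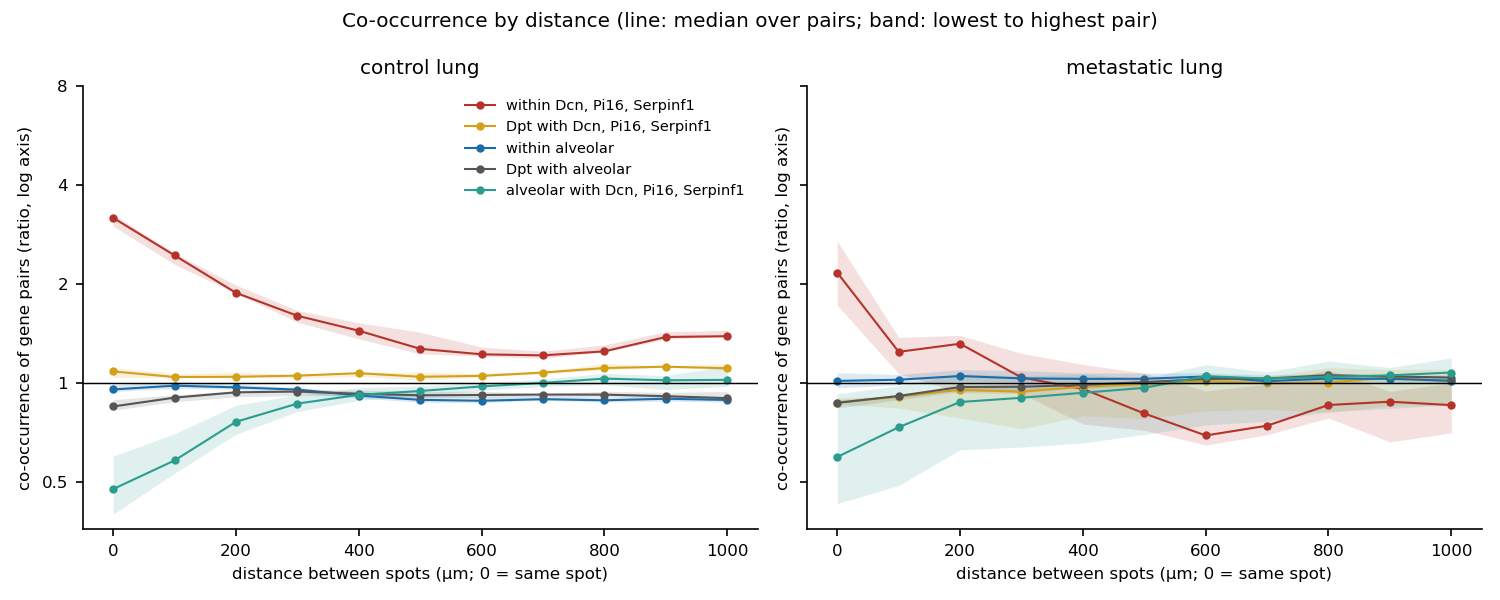
Depth-weighted co-occurrence of gene pairs (ratio, log axis) against the distance between spots in µm, for the control section (left) and the metastatic section (right). A ratio of 1 is no relation only where a gene's share of the counts does not vary with depth. The line is the median over pairs and the band the lowest to highest pair. Dcn, Pi16 and Serpinf1 start at 3.18 and 2.17 in the same spot, and the alveolar genes with these 3 start at 0.476 and 0.596.

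To place the genes in the tissue, spots were classed by other genes. Spots among the top 10% of a section for 8 smooth muscle genes were called smooth-muscle-rich, those for airway and mesothelium genes likewise, and spots in no such class, nor rich in B cell genes, parenchymal. In the control section Dcn was at 0.830 counts per 10000 in 1207 parenchymal spots and at 4.81 in 189 smooth-muscle-rich spots, a ratio of 5.80 (95% interval 5.30 to 6.34). Pi16 was at 0.732 and 5.14, a ratio of 7.02 (6.41 to 7.69), and Serpinf1 at 0.307 and 2.11, a ratio of 6.85 (5.95 to 7.89). These spots held 10.2% of all counts of the section but 40.9% of Dcn, 47.3% of Pi16 and 46.0% of Serpinf1 counts. Dpt was at 2.48 and 2.78, a ratio of 1.12 (1.02 to 1.23).

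The alveolar genes were lower in the smooth-muscle-rich spots of the control section, with ratios of 0.449 for Inmt, 0.369 for Mfap4, 0.276 for Tcf21, 0.266 for Npnt and 0.476 for Pdgfra. Airway-rich spots without much smooth muscle were the poorest in alveolar genes, at 0.157 of the parenchymal level when summed. The smooth-muscle-rich spots also held cardiac muscle genes at 63.3 counts per 10000, against 36.2 in parenchymal spots. In mice, the wall of the larger pulmonary veins carries cardiac muscle. What part the cardiac muscle genes have in these ratios was not tested.

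The parenchymal class of the metastatic section took in spots of the tumour region, so its ratios are given outside that region, for 110 smooth-muscle-rich and 612 parenchymal spots. Dcn was at 1.04 and 0.127 counts per 10000, a ratio of 8.16 (6.24 to 10.7). Pi16 was at 0.714 and 0.285, a ratio of 2.50 (1.97 to 3.18), and Serpinf1 at 0.626 and 0.103, a ratio of 6.07 (4.42 to 8.39). Dpt had a ratio of 0.898 (0.780 to 1.03). The alveolar genes had ratios from 0.554 for Tcf21 to 0.732 for Inmt. In the 82 of these spots that were not airway-rich, the summed alveolar genes were at 0.973 (0.945 to 1.003) of the parenchymal level. Dcn was at 9.53, Pi16 at 2.63 and Serpinf1 at 6.25 there, so the alveolar genes were not clearly lower where these 3 were high. Over all spots, the summed adventitial genes had a ratio of 3.41 in the control and 1.85 in the metastatic section, and the summed alveolar genes 0.413 and 0.861. Outside the tumour region the metastatic values were 1.74 and 0.697. The smooth-muscle-rich spots of the metastatic section were poorer in smooth muscle genes, at 13.7 counts per 10000 against 45.6 in the control section, so the classes are not alike.

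Mesothelium-rich spots, which lie at the pleural surface, set Dcn apart from its partners. In the control section, among spots that were not smooth-muscle-rich, Dcn was at 1.69 (1.46 to 1.94) times the parenchymal level, whereas Pi16 was at 0.529 (0.408 to 0.675) and Serpinf1 at 0.630 (0.432 to 0.892). In the metastatic section outside the tumour region, 82 such spots had Dcn at 10.6 (7.83 to 14.3) times the parenchymal level, from 102 counts. Pi16, with 17 counts, was at 0.786 and Serpinf1, with 4, at 0.511, both with intervals that include 1. Dpt was at 1.63, and among the alveolar genes Mfap4 was at 1.32, Npnt at 1.34 and Pdgfra at 1.43, while Inmt and Tcf21 stayed at 1.02 and 0.999. Dcn thus had 2 places, the smooth-muscle-rich tracts that it shared with Pi16 and Serpinf1, and the mesothelium-rich spots.

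**Figure D3:**
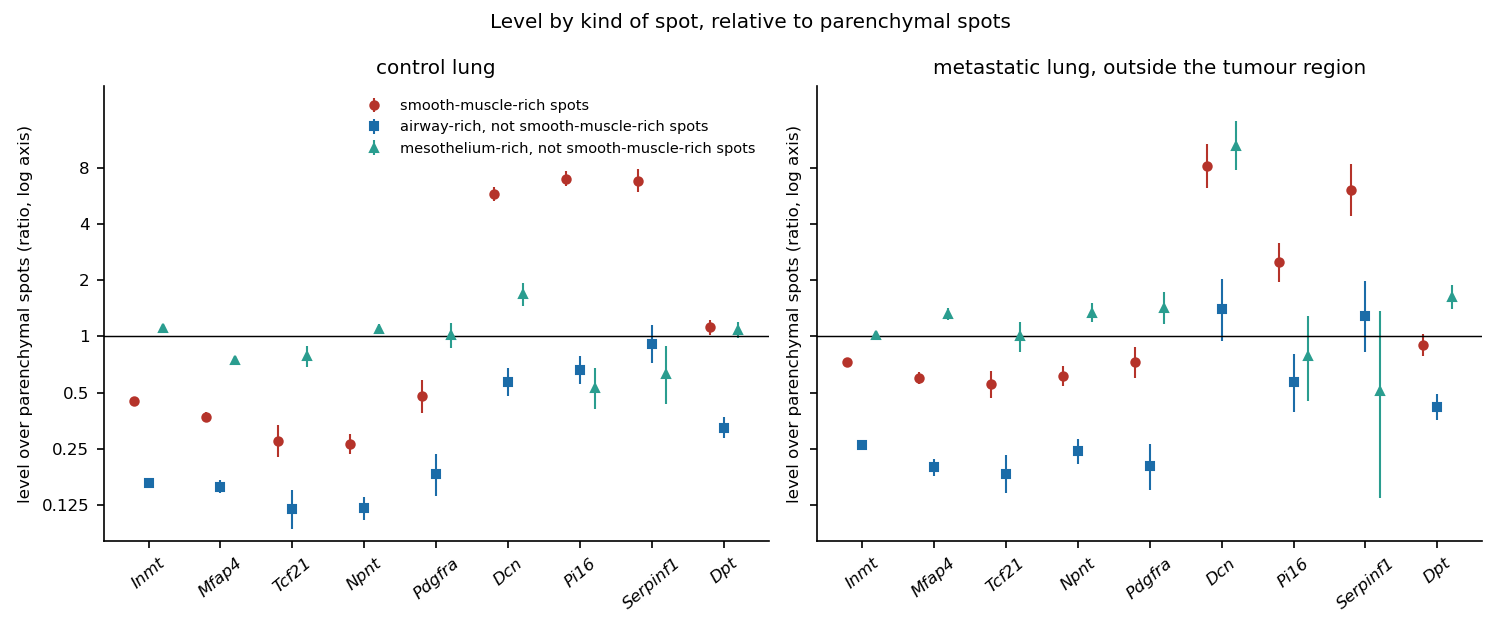
Level in smooth-muscle-rich, airway-rich and mesothelium-rich spots over the level in parenchymal spots (ratio, log axis) for each gene, with 95% counting intervals, in the control section (left) and in the metastatic section outside the tumour region (right). Dcn, Pi16 and Serpinf1 are at 5.80 to 7.02 in the smooth-muscle-rich spots of the control section, where the alveolar genes are at 0.266 to 0.476, and Dcn is also high in mesothelium-rich spots, at 1.69 in the control and 10.6 in the metastatic section.

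Lung far from the tumour region was then compared with the control section. Levels of Dcn, Pi16 and Serpinf1 were at 0.249 to 0.392 of the control level, Mfap4, Npnt and Dpt were moderately lower, and Inmt, Tcf21 and Pdgfra were close to the control level. In spots of several cells, fewer fibroblasts and less RNA per fibroblast cannot be told apart. Over all 13371 genes with at least 50 counts, the median log2 ratio was -0.19, and 2.54% of genes were higher and 12.5% lower past 1.5-fold. A library size without abundant genes raised every log2 ratio of this comparison by 0.15. Against that background, 0 of the 9 genes were higher, and 2 of 5 alveolar and 3 of 4 adventitial genes were lower. The alveolar genes among them, Mfap4 and Npnt, passed narrowly, at log2 ratios of -0.61 and -0.69. With the shift of 0.15 neither would pass, whereas the 3 adventitial genes would.

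Dcn was at 1.199 counts per 10000 in the control section and 0.299 in far lung, a ratio of 0.249 (0.218 to 0.284). Pi16 was at 1.11 and 0.327, a ratio of 0.294 (0.258 to 0.334), and Serpinf1 at 0.467 and 0.183, a ratio of 0.392 (0.328 to 0.466). The ratio of far lung to control lung was also below 1 among parenchymal spots alone and among smooth-muscle-rich spots alone, at 0.127 and 0.187 for Dcn, 0.387 and 0.143 for Pi16 and 0.350 and 0.294 for Serpinf1. Mesothelium-rich spots of the whole metastatic section over those of the control section gave 1.07 (0.890 to 1.29) for Dcn, which was not lower there. Pi16 was at 0.201 (0.119 to 0.323) and Serpinf1 at 0.169 (0.0652 to 0.370) in the same comparison. Dpt was at 2.25 and 1.58, a ratio of 0.704 (0.661 to 0.748). Beside these, the 8 smooth muscle genes summed had a ratio of 0.461 with 7 of 8 past 1.5-fold lower, the mesothelium genes a ratio of 0.301, and the 6 cardiac muscle genes a ratio of 0.00239 with all 6 lower. Neutrophil genes were higher, at a ratio of 10.7 with 7 of 8 past 1.5-fold. How far the cut of each section through vessels and surface sets these ratios was not tested, and with 1 section of each kind it cannot be told apart from the condition.

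Inmt was at 35.4 counts per 10000 in the control section and 31.7 in far lung, a ratio of 0.896 (0.883 to 0.909). Mfap4 was at 10.4 and 6.84, a ratio of 0.655 (0.636 to 0.675), and Npnt at 4.12 and 2.55, a ratio of 0.619 (0.590 to 0.649). Tcf21 was at 1.498 and 1.40 and Pdgfra at 0.875 and 0.907, with ratios of 0.934 (0.872 to 0.999) and 1.04 (0.951 to 1.13). The matrix genes Mfap4 and Npnt were therefore further from the control than the enzyme, the transcription factor and the receptor. Both also lay below the all-gene median, Mfap4 by 0.42 on the log2 scale, whereas Inmt lay 0.03 above it. The ratio of Tcf21 turned slightly above 1 under other scalings (log2 0.05 without abundant genes in the library size and 0.00 after thinning), so no direction is given for it. In smooth-muscle-rich spots alone the summed alveolar genes were at 1.40 times the control level.

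**Figure D4:**
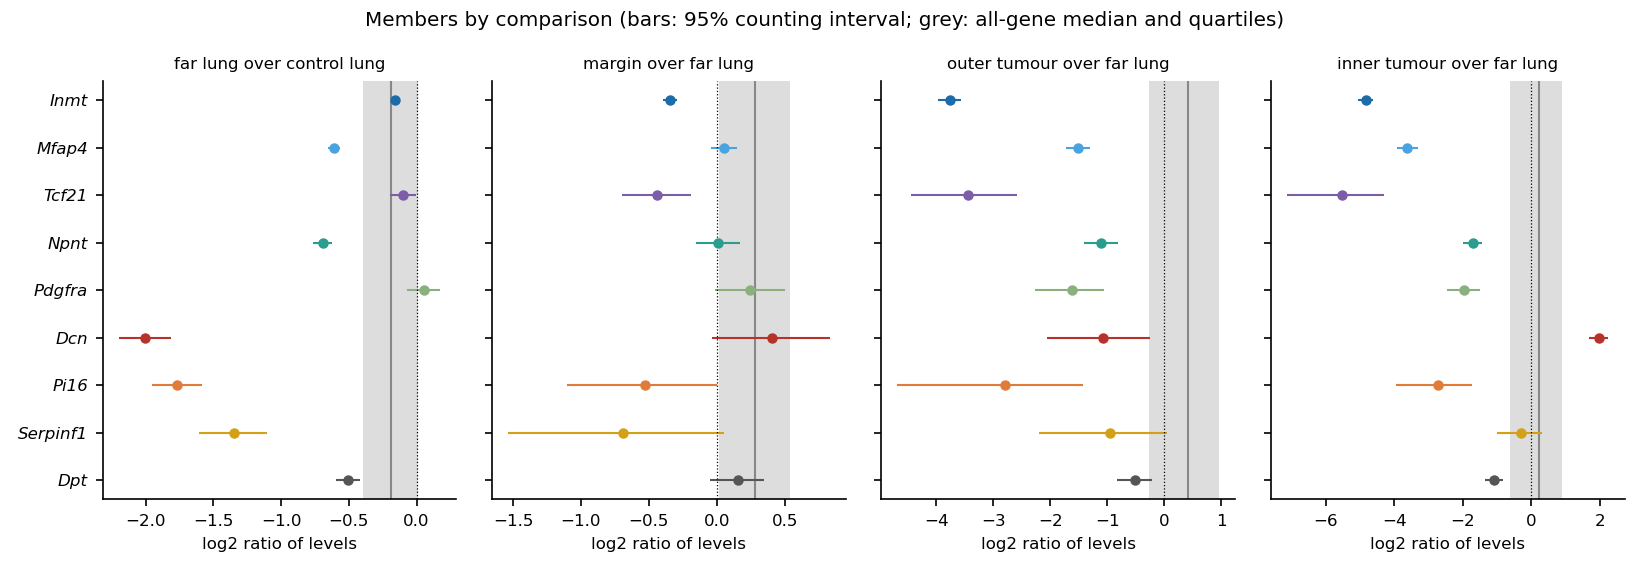
Log2 ratio of levels for each gene in 4 comparisons (far lung over control lung, and margin, outer tumour and inner tumour over far lung), with 95% counting intervals, the median of all genes as a grey line and their quartiles as a grey band. In the first panel Dcn, Pi16 and Serpinf1 lie furthest left. In both tumour panels all 5 alveolar genes, Pi16 and Dpt lie left of the band. In the outer tumour Dcn and Serpinf1 lie left of it too, so that all 9 genes do. In the inner tumour Dcn, at 1.97, is the one gene of the 9 right of the band.

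Distance to the tumour region was then followed in the metastatic section in steps of 100 µm. The summed alveolar genes were at 3.96 counts per 10000 in the tumour region, 26.9 in the adjacent spots, 45.9 at 200 µm and 51.5 at 300 µm, and then varied between 34.0 and 54.3 beyond the spread of counting, with the lowest value in the farthest spots. The 8 AT1 genes, which mark the thin epithelium of the air sacs, took like steps, with 5.48, 29.3, 42.5 and 45.0. Inmt took the same steps, from 1.54 to 17.2, 32.2 and 37.0, and Tcf21 from 0.0645 to 0.700, 1.35 and 1.70. Mfap4, at 1.19, 6.24 and 7.90, and Pdgfra, at 0.254, 0.890 and 1.25, were already near their far level in the adjacent spots. A spot next to the border can hold tumour tissue, and the part of such mixing was not tested.

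The summed adventitial genes showed no such slope, but single genes went different ways. The sum was at 1.87 in the tumour region, 2.19 in the adjacent spots and 2.79 at 200 µm, and between 2.03 and 2.87 beyond. Dcn fell next to the tumour region, with 0.818, 0.233 and 0.550 counts per 10000 at 0, 100 and 200 µm. Pi16, at 0.0484, 0.233 and 0.220, and Dpt, at 0.871, 1.62 and 1.90, rose there. Serpinf1 had 7 to 36 counts per step, and was at 0.129 (0.0882 to 0.182) in the tumour region and 0.298 (0.209 to 0.412) in the farthest spots. At no distance did Dcn, Pi16, Serpinf1 or Dpt reach the level of the control section. For Dcn the value at 0 µm averages an inner part at 1.17 and an outer part at 0.141.

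**Figure D5:**
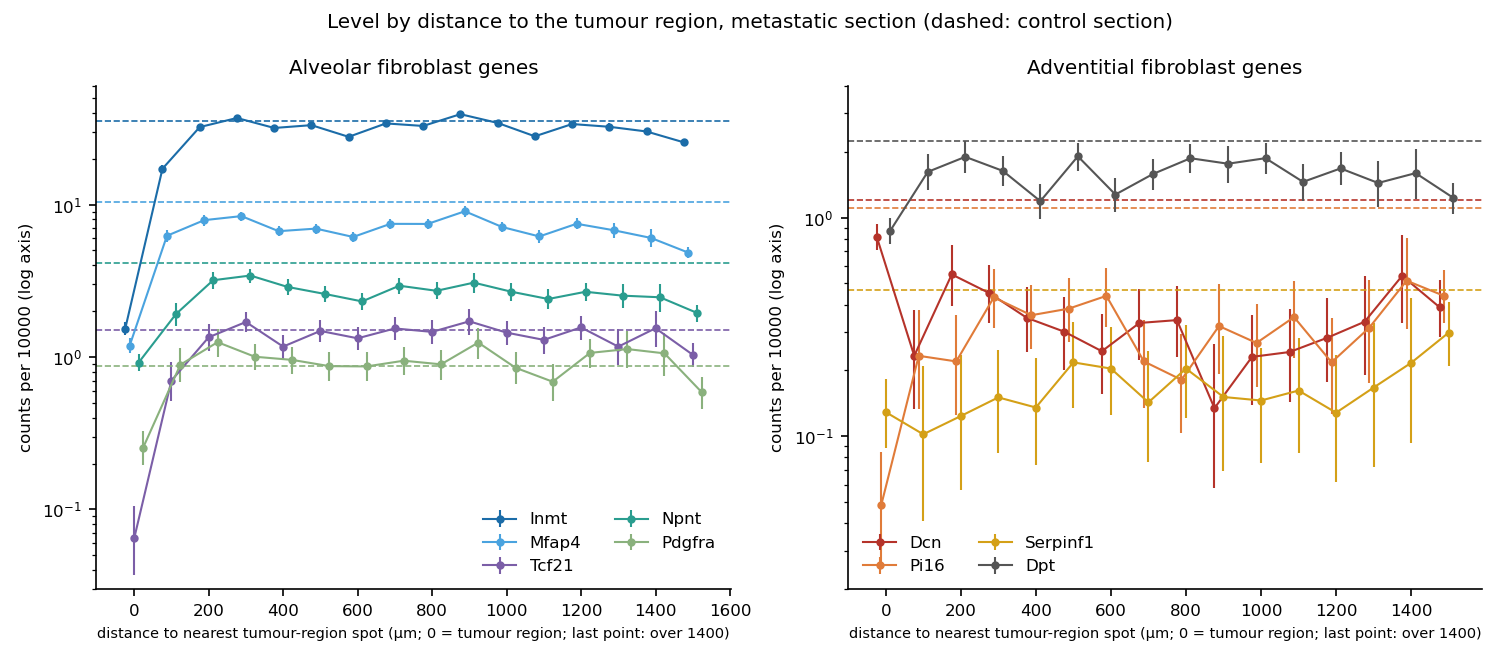
Level (counts per 10000, log axis) of the alveolar (left) and adventitial (right) genes against the distance in µm to the nearest tumour-region spot, with 95% counting intervals, where 0 is the tumour region and dashed lines give the control section. The summed alveolar genes rise from 3.96 at 0 to 45.9 at 200 µm and vary between 34.0 and 54.3 beyond, whereas Dcn is high at 0 (0.818), low in adjacent spots (0.233) and below its control level (1.199) at every distance.

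In the margin as a whole Inmt and Tcf21 were below far lung, and the other members did not differ from it beyond counting error. Of all 11035 genes, 21.3% were higher and 3.75% lower past 1.5-fold, with a median log2 ratio of 0.28, whereas 0 of the 9 genes were higher and 1, Serpinf1, was lower, on 16 counts. Inmt was at 24.9 counts per 10000 against 31.7 in far lung, a ratio of 0.787 (0.760 to 0.815), and Tcf21 at 1.03 against 1.40, a ratio of 0.738 (0.617 to 0.878). Mfap4 (1.04), Npnt (1.01) and Pdgfra (1.19) had intervals that include 1, as had Dcn (1.33), Pi16 (0.693), Serpinf1 (0.618) and Dpt (1.11). A library size without abundant genes lowered every log2 ratio here by 0.26 and put Mfap4, Npnt, Pdgfra and Dpt below 1. The summed alveolar genes had a ratio of 0.846 (0.822 to 0.871), and without the adjacent spots the log2 ratio turned to 0.08. Beside these, the mesothelium genes were at 3.44 times the far level in the margin with 3 of 3 higher, and their part in the margin levels was not tested.

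The margins of the tumour groups were not alike. The summed alveolar genes were at 43.1 counts per 10000 in 38 margin spots of the large group and at 29.4 in 57 of the small one, ratios of 0.994 (0.951 to 1.04) and 0.678 (0.650 to 0.707) to far lung. Mfap4 was at 9.94 and 4.73, Npnt at 3.18 and 1.94, and Tcf21 at 1.299 and 0.720. Pdgfra was at 1.34 and 0.793, with ratios of 1.48 (1.13 to 1.90) and 0.874 (0.668 to 1.13). All 5 alveolar genes were higher at the margin of the large group than of the small one, a difference between 1 place and another.

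In the tumour region all 5 alveolar genes were low. Of 11467 genes, 38.4% were higher and 21.7% lower past 1.5-fold than in far lung, with a median log2 ratio of 0.32. All 5 alveolar genes were lower, and of the adventitial genes Pi16 and Dpt were lower and Dcn higher. Inmt was at 1.54 counts per 10000 against 31.7 in far lung, a ratio of 0.0485 (0.0437 to 0.0536), and Tcf21 at 0.0645, from 16 counts, against 1.40, a ratio of 0.0461 (0.0263 to 0.0752). Mfap4 was at 0.174, Pdgfra at 0.280 and Npnt at 0.360 (0.313 to 0.413) of the far level. The loss of Npnt and Pdgfra was thus smaller than that of Inmt and Tcf21, beyond their counting intervals. Tcf21 and Inmt did not differ from each other beyond these intervals, nor did Pdgfra and Npnt. In the inner part, Tcf21 was at 0.0219 and Inmt at 0.0352 of the far level, and Pdgfra at 0.257 and Npnt at 0.306. The AT1 genes summed to 0.119 of the far level with all 8 lower.

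Pi16 was nearly absent from the tumour region, with 12 counts at 0.0484 counts per 10000 against 0.327 in far lung, a ratio of 0.148 (0.0756 to 0.263). Dpt was at 0.871 against 1.58, a ratio of 0.550 (0.474 to 0.635). Serpinf1 had 32 counts, at 0.129 against 0.183, a ratio of 0.704 (0.465 to 1.04). Dcn was at 0.818 against 0.299, a ratio of 2.74 (2.26 to 3.31), the reverse of its partners. Over the whole region Dcn was below the 1.199 of the control section, whereas in the inner part it was at 1.17, close to that level. A library size without abundant genes lowered every log2 ratio of the tumour region by 0.54, which left Dcn above far lung.

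Dcn lay in the inner part of the large group. It was at 1.17 counts per 10000 in the inner part (191 counts) and 0.141 in the outer part (12 counts), ratios of 3.92 (3.23 to 4.76) and 0.472 (0.241 to 0.839) to far lung. Within the large group the inner over the outer level was 7.16 (3.91 to 14.6), from 187 counts in 76 spots and 11 in 47, whereas Inmt had 0.429 (0.342 to 0.537) and Mfap4 0.217 (0.165 to 0.283). The small group, with no inner spots and a median of 5619 counts per spot, held 1 Dcn count, which is 0.0572 (0.00145 to 0.319) counts per 10000. Dpt in the small group was at 1.60, with 28 counts, against 0.815 in the large one.

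The inner Dcn counts were unevenly placed, with 106 of 191 (55.5%) in 10 of the 79 spots. At the edge of the section 30 inner spots were at 1.52 (1.24 to 1.85) counts per 10000, and 49 interior ones at 0.923 (0.740 to 1.14). The mesothelium genes summed to 2.06 and 0.587 in the same spots. Dcn was at 2.36 in the 20 inner spots that were mesothelium-rich and at 0.754 in the other 59, a ratio of 3.13 (2.33 to 4.21). The 59 spots alone still exceeded the 0.299 of far lung. Outside the tumour region edge spots had Dcn at 0.687 and interior spots at 0.264. The part of surface tissue in the inner Dcn level was not tested beyond these values.

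Other genes of the same cell types were counted from lists that hold none of the 9. In far lung over control lung, 2 of 11 further alveolar fibroblast genes were lower past 1.5-fold and 0 higher, with log2 ratios from -0.85 for Scn7a, a sodium channel, to 0.34 for Ces1d, a carboxylesterase. Of 12 further adventitial genes 8 were lower and 0 higher, from Scara5, a ferritin receptor, at -2.81 to Pcolce2, which promotes procollagen processing, at 0.11. In the tumour region over far lung, 10 of 11 alveolar genes were lower, the lowest being Itga8, the integrin subunit that binds nephronectin, at -4.16. Of 10 adventitial genes 7 were lower, with Gsn, an actin-severing protein, at -3.27, and 1 was higher, Igfbp4, which binds insulin-like growth factors, at 1.49. At the margin 0 of 11 alveolar genes passed in either direction, and 3 of 10 adventitial genes were lower.

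The ligands of the platelet-derived growth factor receptors were read beside Pdgfra. In far lung, 0 of 4 measured genes of this group passed in either direction, with Pdgfrb, the receptor of pericytes, at -0.21 on the log2 scale. In the tumour region all 4 were lower, Pdgfa at -1.20 and Pdgfd at -2.83. The fifth gene of the list, Pdgfc, another ligand of Pdgfra, had too few counts to be among them and went the other way, with 25 counts in the tumour region and 18 in far lung, a ratio of 4.65 (2.44 to 9.04). Of 7 pericyte genes all 7 were lower there, as were all 9 endothelial genes and 7 of 8 smooth muscle genes, so that low levels were not limited to fibroblast genes. Of 4 measured genes of activated fibroblasts, 2 were higher and 2 lower in the tumour region, with Timp1, an inhibitor of matrix proteases that tumour and immune cells also make, at 3.29 and Postn, a matrix protein that is also on the pericyte list, at -2.70. At the margin Timp1 was at 2.15.

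The genes most like each list across spots were found by Pearson correlation of log levels over the 1888 control spots among 3455 genes, outside all fibroblast lists. The alveolar list was most like Sftpc, the surfactant protein C gene (0.84), Ager, an AT1 gene (0.82), H2-D1, a class I histocompatibility gene (0.79), Sparc, a matrix protein gene (0.78), and Ace, angiotensin-converting enzyme of capillaries (0.77). Over the metastatic spots Sftpc, Ager and Ace were at 0.82, 0.86 and 0.87, Sparc at 0.57 and H2-D1 at 0.20. The adventitial list was most like Apoe (0.50), Col3a1 (0.45), Aebp1 (0.45), Cpe (0.44) and Serping1 (0.44), which were lower over the metastatic spots, at 0.25, 0.20, 0.19, 0.052 and 0.28. Without Dpt, the other 3 adventitial genes were most like the contractile genes Acta2 (0.53), Myl9 (0.52) and Cnn1 (0.51), with 0.27, 0.24 and 0.24 over the metastatic spots. Dpt was most like Mgp, matrix Gla protein (0.34, and 0.20 over the metastatic spots). Spots share library, depth and neighbours, so these values describe the sections only.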

How the data were processed

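Per the labels and the submitters' processing notes, the authors ran Space Ranger 1.3.1 on mm10, and the deposited values are counts, whole numbers of molecules for each gene in each spot under tissue, without normalization. The annotation release is not given in the sources used here. The 9 genes and all lists were chosen with earlier results of these data known. The sections held 20329126 (control) and 14657881 (metastatic) counts and had 858 barcodes in common, which are array positions. At about 10000 counts per spot most of the 9 genes have few counts in a spot, so levels were taken from sums over spots.

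The tumour region was 1 of 5 k-means clusters (20 principal components of 2000 variable genes without the 9 genes), the one with the highest mean z-score of 13 tumour genes minus that of 7 airway genes. A second clustering into 2 parts gave its inner part, with more Hmga2. A gene counted as higher or lower past 1.5-fold on a log2 ratio with a pseudocount of 0.5 counts, among genes with at least 50 counts in both groups together. No p-value was computed. The genes named were the 9, the highest and lowest of each list, and the 5 most like each list among genes with at least 0.5 counts per spot. Hmga2, Mki67, Krt8, Krt18 and the genes most like Dpt or the other 3 adventitial genes were chosen after values were seen. The computations were tested on simulated data. Gene IDs matched GENCODE M21 on GRCm38 for all 9 genes. The work used matplotlib 3.10.9, scikit-learn 1.9.0, pandas 2.3.3, scipy 1.17.1 and numpy 2.4.6 under Python 3.11.15.

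Alternatives were a library size without 423 abundant genes (haemoglobin, mitochondrial, surfactant, immunoglobulin and 4 airway secretory genes), means over spots, thinning to 5000 counts per spot (362 control and 82 metastatic spots left out), parenchymal spots only, control spots without cardiac muscle, far lung over 1000 µm, the large tumour group alone and the other groups pooled (28, 2 and 1 spots), other class limits (5% and 20%), and those added after seeing the data.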

Additional observations from a re-analysis of the deposited data

Results flagged for a closer look

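Effects that ran in opposite directions in both sections, or around both tumour groups, with intervals that exclude 1 on either side, are listed here. None of these differences was itself tested. Inmt in smooth-muscle-rich spots that were not airway-rich was at 0.591 of the parenchymal level in the control section and at 1.26 in the metastatic section, and Pdgfra in the same classes at 0.667 and 1.31. Without the spots of the tumour region, which lower the parenchymal level, the metastatic values were 1.01 (0.978 to 1.05) for Inmt and 1.097 (0.893 to 1.34) for Pdgfra, with no direction. Inmt in mesothelium-rich spots was at 1.09 of the parenchymal level in the control section and at 0.827 in the metastatic section, and at 1.03 (0.989 to 1.07) there outside the tumour region. Mfap4 was at 1.45 (1.32 to 1.60) of the far level in the margin of the large group and at 0.692 (0.623 to 0.768) in that of the small one. Npnt was at 1.24 (1.05 to 1.47) and 0.761 (0.643 to 0.894) in the same margins.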

How the results depend on the processing

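Values are log2 ratios of the summed lists except for co-occurrence, and the cause of a change was not tested. Alternatives marked as added were chosen after seeing the data. Of the planned values for the lists, 36 moved past their interval or, for co-occurrence, by over 1.1 times, 2 changed direction and 24 did neither, and of the added ones 16, 4 and 7. For single genes 44 planned values moved, 3 changed direction and 87 did neither.

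In far over control lung, the alveolar genes (-0.27) were at -0.12 with a library size without abundant genes, -0.30 as a mean over spots, -0.30 without control spots rich in cardiac muscle, -0.40 with far lung over 1000 µm and 0.49 in smooth-muscle-rich spots alone (added). The adventitial genes (-1.07) were at -0.93 with that library size, -1.17 as a mean over spots, -0.95 in parenchymal spots, -0.90 without cardiac muscle spots, -1.95 in smooth-muscle-rich spots (added) and -1.78 without Dpt (added).

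In the margin over far lung, the alveolar genes (-0.24) were at -0.50 with that library size, -0.11 with far lung over 1000 µm, -0.0086 at the large group, -0.38 at the other groups pooled, 0.082 without adjacent spots and -1.16 with the inner part as tumour region (added). The adventitial genes (0.06) were at -0.20 with that library size, 0.23 as a mean over spots, 0.26 in parenchymal spots, -0.17 with the inner part (added) and -0.14 without Dpt (added). Values this close to 0 carry no direction.

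In the tumour region over far lung, the alveolar genes (-3.45) were at -3.99 with that library size, -3.32 with far lung over 1000 µm, -2.75 in the other groups pooled and -3.93 with the inner part (added). The adventitial genes (-0.36) were at -0.90, at -0.16 with the inner part (added) and at 0.30 without Dpt (added).

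Co-occurrence in the control section (0.686) was 0.867 after thinning, 0.797 with that library size, 0.841 with equal weight (added) and 0.535 without Dpt (added). In the metastatic section (0.800) it was 1.07 after thinning, 0.880 with that library size, 1.07 with equal weight (added) and 0.677 without Dpt (added), so that separation of the full lists there depends on how spots are weighted.

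In smooth-muscle-rich over parenchymal spots, the adventitial genes of the control section (1.77) were at 1.94 and 1.60 with limits of 5% and 20%, 1.90 with that library size, 2.09 after thinning, 2.14 without airway-rich spots (added) and 2.69 without Dpt (added). In the metastatic section (0.89) they were at 1.22, 0.73, 1.29 with that library size, 1.07 without airway-rich spots (added) and 2.07 without Dpt (added). The alveolar genes of the control section (-1.28) were at -1.13 with the 20% limit, -1.12 with that library size, -1.14 after thinning and -0.87 without airway-rich spots (added). Those of the metastatic section (-0.22) were at -0.16 and -0.17 with limits of 5% and 20%, -0.035 with that library size, -0.13 after thinning, 0.26 without airway-rich spots (added) and -0.52 outside the tumour region (added).

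Among single genes, Tcf21 in far over control lung turned to 0.046 with that library size and 0.0026 after thinning, and Dcn in the tumour region over far lung turned to -0.25 in the groups other than the large one. A tumour region set by a tumour score above every control spot held no spots and gave no value. Depth limits Tcf21, Pi16 and Serpinf1 in the tumour region, with 16, 12 and 32 counts, and Serpinf1 in the margin, with 16. No paired analysis was possible because each condition had 1 section.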
